A study of Mus musculus with 6 samples.

Results

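The genes described here are 8 negative regulators of MAP kinase signalling, namely the dual-specificity phosphatases Dusp1, Dusp2, Dusp3, Dusp5, Dusp6 and Dusp16 and the pathway inhibitors Spred1 and Spry2. They are 8 of the 18429 genes in the count matrix. They were chosen by name, with their response to LPS and their difference between genotypes in these same cells already known, so the values below are a description of the 8 genes. All 8 were present in the matrix, and 7 passed a minimum of 100 UMIs over the 6 samples. Spry2 had 38 UMIs and did not pass. Dusp5 passed with 120 UMIs, of which 85 came from 1 sample.

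The cells were mouse bone marrow-derived macrophages, grown with L929-conditioned medium and sorted singly into plates for MARS-seq, a 3′ method that counts unique molecular identifiers (UMIs). There were 6 samples, 1 for each combination of genotype (wild-type or Rad21-/-) and treatment (untreated, or LPS at 10 ng/ml for 2 h or 8 h). Macrophages of both genotypes carried creERT2 on both alleles of the Rosa26 locus, and both were given 4-hydroxy-tamoxifen before the experiment, so that wild-type cells shared the Cre and the drug with Rad21-/- cells. Rad21 encodes a subunit of the cohesin complex, and its floxed alleles were deleted in culture. The number of animals behind a sample is not given in the sources used here. With 1 sample per group no difference between groups has a replicate check, and no test was made. All intervals are 95% intervals for counting error alone.

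Bacterial LPS signals through Toll-like receptor adaptors to the ERK, p38 and JNK kinases, and these kinases are switched off when dual-specificity phosphatases remove phosphate from both the threonine and the tyrosine of their activation loop. Many of the phosphatases are themselves products of the signal, which makes them feedback inhibitors. Dusp1, Dusp2 and Dusp5 encode nuclear enzymes, Dusp6 a cytoplasmic enzyme selective for ERK, Dusp16 an enzyme that prefers JNK and p38, and Dusp3 a small atypical enzyme without the kinase-docking domain of the others. Spred1 and Spry2 encode inhibitors that act upstream, between receptors, Ras and Raf.

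The matrix held 682 wild-type and 680 Rad21-/- cells, and the 6 samples had 1417409 to 2195921 UMIs each, with a median of 5577.0 to 7055.5 UMIs per cell. In the wild-type 2 h sample, 5 wells of more than 25000 UMIs held 45.5% of all UMIs, so levels were taken as the mean over cells of CPM, the UMIs of a gene scaled to a common total per cell, in which each cell has the same weight. Leaving out the 17 such wells of all samples changed no 2-fold call of a member. No combination of library pool and cell barcode was repeated. Rad21 itself was at 60.9, 50.2 and 34.2 CPM in wild-type cells at 0, 2 and 8 h, and at 4.90, 8.15 and 8.60 CPM in Rad21-/- cells. A UMI of Rad21 was present in 18.7 to 26.9% of wild-type cells and in 2.96 to 6.45% of Rad21-/- cells. Every cell had a UMI of at least 1 of 8 macrophage markers. Their summed level was 9408, 10365 and 7745 CPM in wild-type cells and lower in Rad21-/- cells each time, at 6179, 6855 and 6164 CPM. Of the B cell markers, Ms4a1 and Ighm were measured here, and a UMI of either was present in 46.0 to 53.7% of Rad21-/- cells and 14.0 to 21.3% of wild-type cells. Of 5 other lists with a measured marker (T cell, neutrophil, dendritic cell, mast cell and stromal), none had a UMI in more than 18.8% of the cells of any sample, and erythroid markers were not analysed here. Summed B cell markers were at 23.9 to 49 CPM in wild-type and 169.7 to 181 CPM in Rad21-/- cells.

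The 300 bases around the start site, 250 before and 50 after, were read for all 8 genes from RefSeq promoters of GRCm38.p6. They are shown for the 4 genes that were at least 2-fold higher after LPS and for Dusp6, the gene with the lowest ratio to untreated cells at both times. Bases run 5′ to 3′ in the direction of transcription. Capitals mark matches on either strand to AP-1 (TGANTCA), CRE (TGACGTCA), CRE core (TGACG, which also matches inside a CRE), EGR (GCGGGGGCG), NF-kappaB and CArG box motifs.
Dusp1, chr17:26508423-26508722, minus strand: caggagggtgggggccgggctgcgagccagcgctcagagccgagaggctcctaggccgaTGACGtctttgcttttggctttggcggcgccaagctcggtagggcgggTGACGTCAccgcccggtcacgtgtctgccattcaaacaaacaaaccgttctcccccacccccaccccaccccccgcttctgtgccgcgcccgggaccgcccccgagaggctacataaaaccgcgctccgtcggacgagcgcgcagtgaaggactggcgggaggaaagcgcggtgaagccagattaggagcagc
Dusp2, chr2:127335909-127336208, plus strand: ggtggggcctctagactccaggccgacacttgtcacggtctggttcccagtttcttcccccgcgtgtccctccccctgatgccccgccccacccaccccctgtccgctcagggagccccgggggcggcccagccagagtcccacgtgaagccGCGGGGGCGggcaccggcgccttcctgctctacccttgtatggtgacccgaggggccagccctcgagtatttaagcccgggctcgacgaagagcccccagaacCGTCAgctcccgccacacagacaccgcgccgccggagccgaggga
Dusp5, chr19:53528895-53529194, plus strand: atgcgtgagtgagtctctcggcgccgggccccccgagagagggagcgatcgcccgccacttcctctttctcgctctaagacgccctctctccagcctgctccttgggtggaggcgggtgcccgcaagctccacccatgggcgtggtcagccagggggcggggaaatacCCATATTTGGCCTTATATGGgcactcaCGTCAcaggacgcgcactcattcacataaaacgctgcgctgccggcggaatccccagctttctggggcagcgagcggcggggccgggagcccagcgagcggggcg
Dusp16, chr6:134792579-134792878, minus strand: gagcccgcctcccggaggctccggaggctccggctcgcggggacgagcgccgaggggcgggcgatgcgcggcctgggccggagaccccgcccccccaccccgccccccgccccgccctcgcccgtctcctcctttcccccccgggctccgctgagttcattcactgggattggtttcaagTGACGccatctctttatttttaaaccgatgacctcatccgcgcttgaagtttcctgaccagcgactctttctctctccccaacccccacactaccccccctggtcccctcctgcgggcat
Dusp6, chr10:99262981-99263280, plus strand: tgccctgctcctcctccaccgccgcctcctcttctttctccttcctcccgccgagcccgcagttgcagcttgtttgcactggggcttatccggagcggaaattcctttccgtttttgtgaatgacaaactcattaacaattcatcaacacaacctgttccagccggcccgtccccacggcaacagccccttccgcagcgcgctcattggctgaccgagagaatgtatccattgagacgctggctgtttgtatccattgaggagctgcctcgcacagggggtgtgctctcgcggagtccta

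The CRE core was found in 4 of the 4 genes that were at least 2-fold higher after LPS, against 20.8% of all 32851 promoters of this length. It was found in 0 of the 2 lowered genes, Dusp6 and Dusp3. It was also found in 0 of the 2 genes in neither group, Spred1, which was higher by less than 2-fold, and Spry2, which was too sparse to place. The groups come from the LPS values of these same data, and a link between the motif and the response was not tested. The Dusp1 promoter held a whole CRE at base -143 counted from the start site, a motif present in 1.79% of promoters, and a further CRE core at -191. The Dusp5 promoter held 2 CArG boxes, the letters bound by serum response factor, at -82 and -72, and 1.63% of promoters held such a box. The Dusp2 promoter held an EGR motif at -98, as did 2.91% of promoters. No AP-1 letters (7.81% of promoters) and no NF-kappaB letters (4.51%) were found in any of the 8 windows. For Dusp16 and Dusp3 the annotated start lay inside the span of the gene, so other starts exist that were not read here. A match is a description of letters and does not show binding.

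LPS separated the 8 genes into 3 groups in wild-type macrophages. Dusp1, Dusp2, Dusp5 and Dusp16 were at least 2-fold higher than in untreated cells at both 2 h and 8 h, with 1 UMI added to each sample. Dusp6 was lower at both times and Dusp3 at 8 h alone. Spred1 stayed under 2-fold, and Spry2 was too sparse to place. At 2 h, 4 of the 7 members with the minimum UMIs were 2-fold higher and 1 was lower. Over all 11913 genes with the minimum UMIs, 4.42% were 2-fold higher and 4.50% lower. At 8 h, 4 members were higher and 2 lower, where 6.35% of all genes were higher and 17.8% lower. In Rad21-/- cells 4 members were higher and 1 lower at 2 h (4.57% and 3.42% of all genes), and again 4 higher and 1 lower at 8 h (7.00% and 6.69%). Since the members were chosen on these contrasts, nothing is read from their counts against those of all genes. The median log2 ratio of all genes tested was -0.27 at 8 h in wild-type cells and -0.025 in Rad21-/- cells, which is the centre against which the 8 h values stand.

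**Figure D1:**
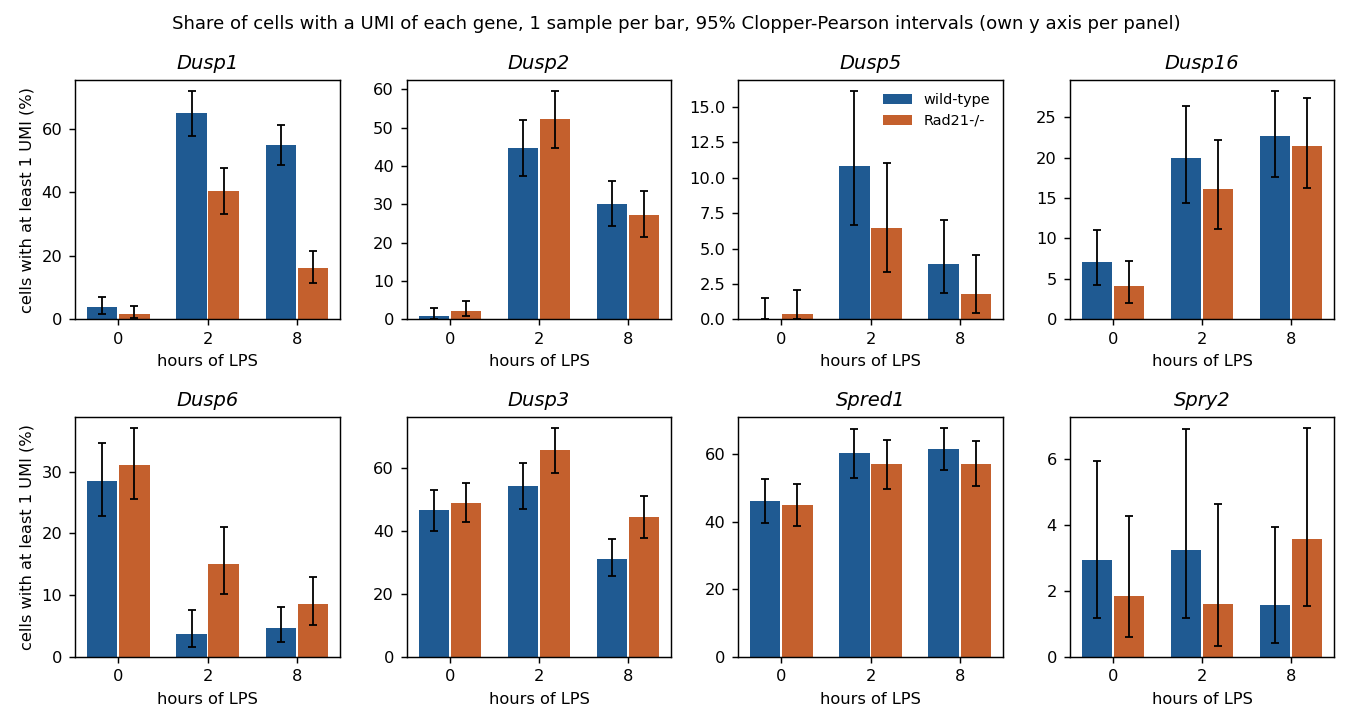
The plot shows for each gene the percent of cells with at least 1 UMI (y axis, own scale in each panel) without LPS and after 2 h and 8 h (x axis) in wild-type and Rad21-/- macrophages, 1 sample per bar with 95% Clopper-Pearson intervals. Dusp1 reached 65.1% of wild-type cells at 2 h against 40.3% of Rad21-/- cells, while Dusp6 went from 28.5% of untreated wild-type cells to 3.76%.

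Dusp1, whose product limits p38 and JNK activity and with it cytokine output in macrophages, had the highest share of positive cells after LPS of the 4 raised genes in wild-type cells. Its mean level in wild-type cells was 7.87 CPM untreated, 302.4 CPM at 2 h and 202.2 CPM at 8 h. The Rad21-/- samples stood at 6.01, 136.6 and 21.6 CPM at the same times. The order of the levels was thus wild-type 2 h, wild-type 8 h, Rad21-/- 2 h, Rad21-/- 8 h and then both untreated samples. The intervals of the first 4 did not overlap. That of Rad21-/- cells at 8 h (15 to 32.4 CPM) met that of untreated wild-type cells (3.77 to 16.6 CPM). These intervals cover counting error alone and leave out spread between cells. In cells thinned to a common depth, the variance of Dusp1 UMIs per cell was above the mean. It was 2.69 times the mean in wild-type cells at 2 h, 1.80 times at 8 h and 2.28 times in Rad21-/- cells at 2 h. Whether the samples stay apart with that spread included was not tested. A UMI was found in 3.77%, 65.1% and 54.9% of wild-type cells and in 1.85%, 40.3% and 16.1% of Rad21-/- cells. The wild-type level was 38.4-fold (18 to 80.9) higher than untreated at 2 h and 25.7-fold (12.0 to 54.1) higher at 8 h. The corresponding folds in Rad21-/- cells were 22.7 (9.38 to 57.3) and 3.60 (1.40 to 9.70). The 8 h value in Rad21-/- cells moved with 1 untreated library pool of 48 Rad21-/- cells, without which its log2 ratio, with 1 UMI added to each sample, was 2.49 in place of 1.73. It was 2.33 from CPM of the summed UMIs and 2.39 with each pool of equal weight. At 2 h the log2 ratio without that pool was 5.11 in place of 4.36. Of the 720 Dusp1 UMIs in the wild-type 2 h sample, 49.3% lay in the 5 deepest wells, and 194 lay in 1 cell.

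Dusp2, a nuclear phosphatase of immune cells that acts on ERK and p38, was close to absent before LPS. It had 2 UMIs in 239 untreated wild-type cells and 9 UMIs in 270 untreated Rad21-/- cells. Its level in wild-type cells was 1.65, 114.4 and 73.7 CPM at 0, 2 and 8 h, and in Rad21-/- cells 3.74, 158.8 and 55.3 CPM. Positive cells made up 0.837%, 44.6% and 30.0% of wild-type cells and 2.22%, 52.2% and 27.2% of Rad21-/- cells. With only 2 UMIs in the wild-type baseline, the fold at 2 h was 69.5 with an interval of 12.8 to 606. The fold at 8 h was 44.8 (8.23 to 392). The folds in Rad21-/- cells were 42.4 (14.7 to 103) and 14.8 (5.06 to 36.5). Both genotypes thus had a higher level at 2 h than at 8 h, while the higher genotype was Rad21-/- at 2 h and wild-type at 8 h.

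Dusp5, a nuclear phosphatase selective for ERK, was the sparsest of the 4 raised genes. No UMI was found in 239 untreated wild-type cells, which by a limit of 3 counts allows up to 1.26% of cells with a UMI at this depth and sets no limit on cells that express the gene. There were 85 UMIs in 20 wild-type cells (10.8%) at 2 h and 16 UMIs in 10 cells (3.89%) at 8 h. Rad21-/- cells had 1, 14 and 4 UMIs at 0, 2 and 8 h, in 0.370%, 6.45% and 1.79% of cells. Levels were 18.1 and 5.20 CPM in wild-type cells at 2 h and 8 h, and 10.6 and 2.29 CPM in Rad21-/- cells. Set against a floor of 3 UMIs over the untreated sample, the wild-type level at 2 h was at least 7.45-fold higher, a ratio that leaves out the counting error of the 2 h level. The untreated level had an upper limit of 6.74 CPM. That limit lay under the interval at 2 h (10.8 to 30.6 CPM) and inside that at 8 h (2.47 to 11.9 CPM). The intervals of the untreated and 8 h mean levels in wild-type cells thus overlapped. The share of positive wild-type cells was 3.89 points (1.36 to 7.04) higher at 8 h than untreated, an interval that excluded 0. In cells thinned to a common depth that difference was 1.75 points (-0.536 to 4.43), an interval that included 0. In Rad21-/- cells the ratio to the 1 untreated UMI, which lay in a well of more than 25000 UMIs, was 177.7-fold (1.52 to 7526) at 2 h and 38.6-fold (0.271 to 2015) at 8 h, so that the 8 h ratio was not distinguishable from equality. Without 1 pool of 46 Rad21-/- cells at 8 h the Rad21-/- log2 ratio at 8 h, with 1 UMI added to each sample, was 1.33 in place of 1.97. Of the wild-type UMIs at 2 h, 77.6% lay in the deep wells.

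Dusp16, whose product prefers JNK and p38, had the smallest log2 ratio of the 4 raised genes at 2 h in both genotypes, and was the only one of them with a level at 8 h that was not below that at 2 h. Its level was 13.2, 38.9 and 43.6 CPM in wild-type cells at 0, 2 and 8 h and 10.5, 23.5 and 33.7 CPM in Rad21-/- cells. A UMI was present in 7.11%, 19.9% and 22.6% of wild-type cells and in 4.07%, 16.1% and 21.4% of Rad21-/- cells. The wild-type folds were 2.96 (1.49 to 5.99) at 2 h and 3.31 (1.72 to 6.47) at 8 h, and the intervals of the 2 h and 8 h levels overlapped. The Rad21-/- folds were 2.24 (1.03 to 5.01) and 3.20 (1.56 to 6.78). The Rad21-/- 2 h value was close to the threshold, with a log2 ratio (1 UMI added) of 1.13. It lay between 0.88 and 0.98 when any 1 of 5 pools (4 untreated and 1 at 2 h) was left out, and at 2.44 without another untreated pool, of 48 Rad21-/- cells. Without that pool the 8 h log2 ratio was 2.93 in place of 1.61.

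Dusp6, a cytoplasmic phosphatase selective for ERK and commonly used as a readout of ERK activity, went in the opposite direction. Its level in wild-type cells was 66.3 CPM untreated, 3.65 CPM at 2 h and 8.82 CPM at 8 h. The Rad21-/- samples stood at 76.8, 30.4 and 15 CPM. It was detected in 28.5%, 3.76% and 4.67% of wild-type cells and in 31.1%, 15.1% and 8.48% of Rad21-/- cells. The untreated samples of both genotypes were the highest and their intervals overlapped, followed by Rad21-/- cells at 2 h, which stood apart from the wild-type 2 h sample. Wild-type cells were 18.1-fold (5.33 to 50.2) lower at 2 h and 7.51-fold (3.80 to 14.7) lower at 8 h. With each library pool of equal weight the log2 ratio at 2 h was -4.79 in place of -3.87. In that setting, 2 h pools of 1 to 5 wild-type cells weighed as much as pools of 41 to 47. Rad21-/- cells were 2.53-fold (1.62 to 3.94) lower at 2 h and 5.12-fold (2.93 to 8.73) lower at 8 h. The wild-type values after LPS rest on 11 UMIs at 2 h and 14 UMIs at 8 h.

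Dusp3, the small atypical phosphatase, was detected in about as many untreated cells as Spred1 and was unlike the other members in its time course. Its level was 127.6, 138.2 and 60.7 CPM in wild-type cells at 0, 2 and 8 h and 137.6, 170.5 and 81 CPM in Rad21-/- cells. Positive cells made up 46.4%, 54.3% and 31.1% of wild-type cells and 48.9%, 65.6% and 44.2% of Rad21-/- cells. At 8 h it was 2.10-fold (1.60 to 2.76) lower than untreated in wild-type cells and 1.7-fold (1.33 to 2.17) lower in Rad21-/- cells. The wild-type log2 ratio of -1.06 was the called value against untreated cells nearest the threshold, and it was -0.98 when any 1 of 3 pools (1 untreated and 2 at 8 h) was left out. The Rad21-/- log2 ratio of -0.76 was the uncalled value against untreated cells nearest the threshold. At 2 h the wild-type ratio was 1.08-fold (0.860 to 1.36). At the 3800-UMI depth, positive wild-type cells were 39.1%, 33.3% and 23.7% at 0, 2 and 8 h, so that the direction between untreated cells and 2 h turned with depth.

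Spred1, an inhibitor of Ras activation that recruits neurofibromin, was detected in 44.8 to 61.5% of cells in all 6 samples. Its level was 106.4, 156.8 and 173.6 CPM in wild-type cells and 108.2, 153.5 and 134.6 CPM in Rad21-/- cells at 0, 2 and 8 h. Wild-type cells were 1.47-fold (1.16 to 1.88) higher at 2 h and 1.63-fold (1.31 to 2.03) higher at 8 h, with a log2 ratio of 0.70 at 8 h. Rad21-/- cells were 1.42-fold (1.13 to 1.78) and 1.24-fold (1.00 to 1.55) higher. Spry2, an inhibitor of receptor tyrosine kinase signalling, had 3 to 9 UMIs in each sample and 1.56 to 3.57% positive cells. Its 6 levels lay between 2.12 and 4.95 CPM with overlapping intervals, so no change was detectable at this depth.

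**Figure D2:**
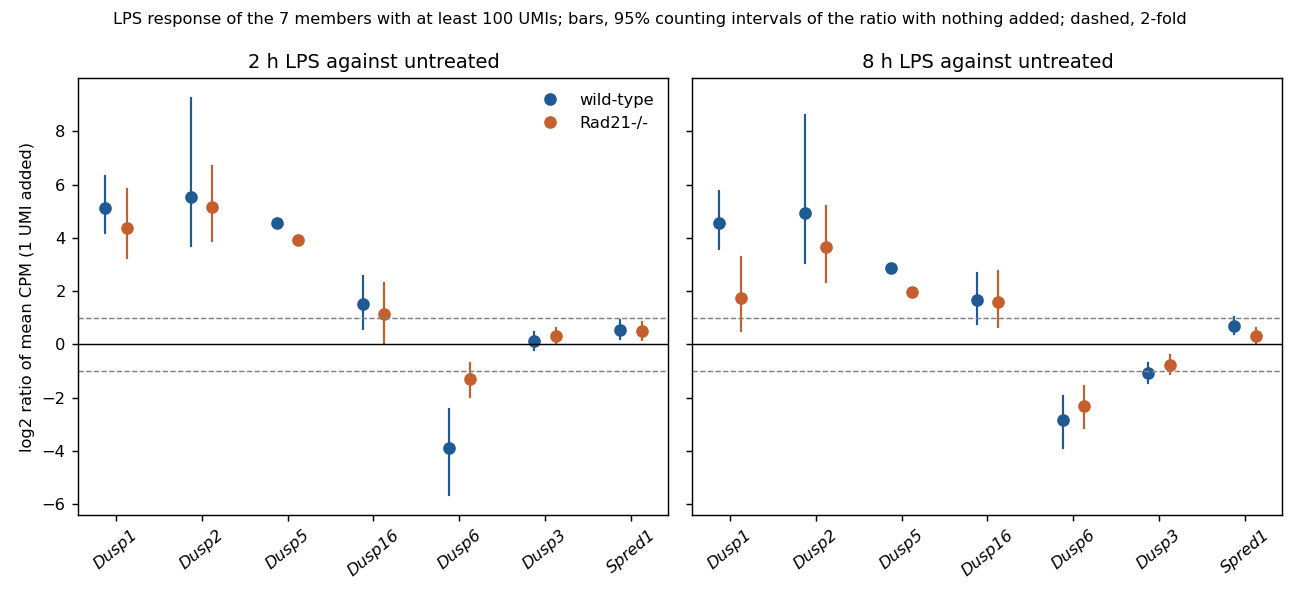
Points show the log2 ratio of mean CPM after LPS against untreated cells (y axis, 1 UMI added to each sample) for 7 genes (x axis) in wild-type and Rad21-/- macrophages at 2 h and 8 h. Vertical lines are 95% counting intervals of the ratio with nothing added, left out for Dusp5, and dashed lines mark 2-fold. Dusp1 stood at 4.55 in wild-type and 1.73 in Rad21-/- cells at 8 h, and Dusp6 at -3.87 and -1.31 at 2 h.

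From 2 h to 8 h in wild-type cells, Dusp5 and Dusp3 were at least 2-fold lower and Dusp6 was at least 2-fold higher, so 1 member was higher and 2 were lower, against 5.81% and 13.3% of all genes. Dusp5 was 3.47-fold (1.31 to 8.66) lower and Dusp3 2.27-fold (1.73 to 3.0) lower. The Dusp6 ratio of 2.41 had an interval of 0.621 to 7.86 and was not distinguishable from equality. Its log2 ratio of 1.06 (1 UMI added) lay between 0.69 and 0.95 when any 1 of 5 pools (2 at 2 h and 3 at 8 h) was left out. Dusp1 was 1.5-fold (1.27 to 1.76) lower and Dusp2 1.55-fold (1.19 to 2.03) lower, both under 2-fold.

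With 1 UMI added to each sample, untreated cells of the 2 genotypes did not differ by 2-fold for any of the 7 members. Of all genes, 2.16% were higher in Rad21-/- cells and 5.20% lower. Dusp6, Dusp3 and Spred1 had untreated levels high enough for a narrow interval. Their ratios of Rad21-/- to wild-type, with nothing added, were 1.16 (0.855 to 1.57), 1.08 (0.868 to 1.34) and 1.02 (0.799 to 1.30). Dusp16 had a log2 ratio of -0.32, which was -1.57 without 1 pool of 48 Rad21-/- and 43 wild-type cells. Dusp2 had a log2 ratio of 0.86, which was 1.28 without 1 pool of 48 Rad21-/- and 46 wild-type cells and 1.25 without a pool of 47 and 47 cells.

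After LPS the genotypes differed most for Dusp1 and Dusp6. At 2 h, 1 member was at least 2-fold higher in Rad21-/- cells and 1 was lower, with 3.64% and 6.25% of all genes. At 8 h, 0 members were higher and 1 was lower, with 9.44% and 4.33% of all genes. Dusp1 was 2.21-fold (1.79 to 2.73) lower in Rad21-/- cells at 2 h and 9.36-fold (6.15 to 13.7) lower at 8 h. The share of Dusp1-positive cells differed by -24.7 points (-34.6 to -14.3) at 2 h and by -38.8 points (-46.5 to -30.4) at 8 h. Dusp6 was 8.33-fold (2.35 to 24.2) higher in Rad21-/- cells at 2 h, where its share was 11.3 points (5.14 to 17.7) higher. At 8 h its ratio of 1.7 had an interval of 0.758 to 3.86. Of the other raised genes, Dusp2 was 1.39-fold (1.09 to 1.77) higher in Rad21-/- cells at 2 h, with a ratio of 0.750 (0.550 to 1.03) at 8 h. With each pool of equal weight its log2 ratio at 2 h was 1.11 in place of 0.47, past 2-fold. In that setting, 2 h pools of 1 to 6 cells of a genotype weighed as much as pools of 41 to 47. Dusp16 had ratios of 0.605 (0.349 to 1.06) and 0.773 (0.512 to 1.19), and Dusp5 of 0.585 (0.233 to 1.42) and 0.440 (0.0739 to 2.27), all with intervals that include equality. Spred1 was 1.29-fold (1.06 to 1.56) lower at 8 h. On the log2 scale with 1 UMI added, the response to 8 h of LPS in Rad21-/- cells minus that in wild-type cells was -2.81 for Dusp1, -1.27 for Dusp2, -0.90 for Dusp5 and -0.049 for Dusp16, and these differences had no test. They also carry the untreated samples. For Dusp2 the log2 ratio of Rad21-/- to wild-type was 0.86 untreated, on 9 and 2 UMIs, and -0.41 at 8 h. For Dusp5 the untreated samples held 1 and 0 UMIs. The Dusp1 log2 ratio between genotypes at 8 h was -3.19.

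The calls at the edge of the threshold moved with single pools. The Dusp5 log2 ratio at 8 h of -0.99 lay between -1.71 and -1.10 when any 1 of 3 pools was left out. The Dusp16 log2 ratio at 2 h of -0.70 was -1.12 without 1 pool of 41 Rad21-/- and 47 wild-type cells, and the Dusp6 log2 ratio at 8 h of 0.72 was 1.09 without 1 pool of 44 and 43 cells. The Dusp1 calls at 2 h and 8 h and the Dusp6 call at 2 h held without any 1 pool.

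Each library pool held 1 time point, so comparisons between times were between different pools, where LPS and pool cannot be told apart. Between genotypes, pools gave a comparison within a batch, since 18 of 24 pools held at least 10 cells of both genotypes. The Dusp1 share was lower in Rad21-/- cells in 4 of 4 such pools at 2 h, with differences from -31.9 to -15 points. At 2 h it ranged from 58.5 to 67.4% in wild-type and from 26.7 to 48.8% in Rad21-/- cells. At 8 h it was lower in 6 of 6 pools, with 41.5 to 73.3% of wild-type and 6.52 to 25% of Rad21-/- cells positive, so that the 2 ranges did not meet. The Dusp6 share was higher in Rad21-/- cells in 4 of 4 pools at 2 h, at 9.76 to 20.0% against 2.44 to 4.65%. At 8 h it was higher in 5 of 6 pools. The Dusp2 share was lower in Rad21-/- cells in 2 of 4 pools at 2 h and in 5 of 6 at 8 h, with differences from -7.42 to 23.9 points at 2 h and from -7.05 to 6.31 points at 8 h, while its CPM was higher in Rad21-/- cells in 4 of 4 pools at 2 h. Pools are not replicates of a sample.

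**Figure D3:**
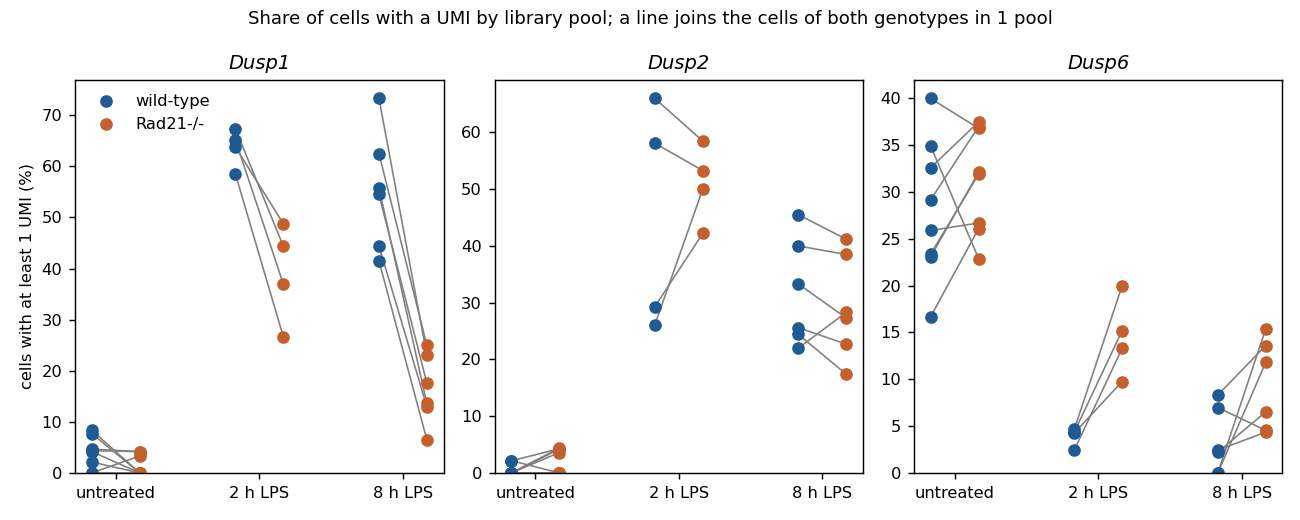
Each point is the percent of cells with at least 1 UMI (y axis) in 1 library pool with at least 10 cells of each genotype, by treatment (x axis), and each line joins wild-type and Rad21-/- cells of 1 pool. All 4 lines at 2 h and all 6 lines at 8 h go down for Dusp1, all 4 lines at 2 h go up for Dusp6, and the lines for Dusp2 go both ways.

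Other markers moved with genotype beside these genes. Ighm, an immunoglobulin heavy chain gene used as a B cell marker, was 4.39-fold, 10.2-fold and 13.5-fold higher in Rad21-/- cells at 0, 2 and 8 h, while Ms4a1 was detected in 3.33 to 9.14% of cells of all samples. In cells without a UMI of either gene, a setting chosen after seeing the data, the Dusp1 log2 ratio of Rad21-/- to wild-type was -0.97 at 2 h (-1.14 in all cells), which ends the 2-fold call, and -3.19 at 8 h (-3.19 in all cells). The Dusp6 log2 ratio at 2 h was 3.48 in those cells (2.78 in all cells). Cd14, a co-receptor for LPS, was 4.71-fold (4.00 to 5.53) lower in Rad21-/- cells untreated and 3.39-fold (3.07 to 3.75) lower at 2 h. At 8 h Cd14 was at 1937 CPM in wild-type and 1013 CPM in Rad21-/- cells. The part of Cd14 in the Dusp1 and Dusp6 values was not tested.

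To compare cells at 1 depth, all cells were thinned to 3800 UMIs, which left out 21 to 47 shallower cells per sample. Of the thinned wild-type cells, 1.56% had Dusp1 untreated, 50.3% at 2 h and 44.3% at 8 h. Of the thinned Rad21-/- cells, 1.35%, 31.2% and 7.39% had it. Thinned wild-type cells with 4 or more Dusp1 UMIs were 7.88% at 2 h and 3.51% at 8 h, against 3.90% and 0% in Rad21-/- cells. The variance of Dusp1 UMIs per thinned cell was 2.69 times the mean in wild-type cells at 2 h, where independent counting at 1 common level gives a value near unity. Dusp2 was less spread, with 1.27 times the mean in wild-type cells and 1.34 times in Rad21-/- cells at 2 h. Dusp6 was found in 19.3%, 1.82% and 3.07% of thinned wild-type cells, against 20.2%, 7.79% and 5.91% of thinned Rad21-/- cells. Among positive cells before thinning, the mean natural logarithm of CPM + 1 for Dusp1 was 5.86 and 5.67 in wild-type cells at 2 h and 8 h, and 5.58 and 4.76 in Rad21-/- cells. At 8 h, 6 of 36 positive Rad21-/- cells had 2 or more UMIs, against 78 of 141 wild-type cells. The Rad21-/- value at 8 h is thus close to that of a single UMI, which depends on depth. Median depth at 8 h was 7055.5 UMIs in Rad21-/- and 5819.0 in wild-type cells. A difference in the share of positive cells at this depth cannot be told apart from a lower level in every cell.

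**Figure D4:**
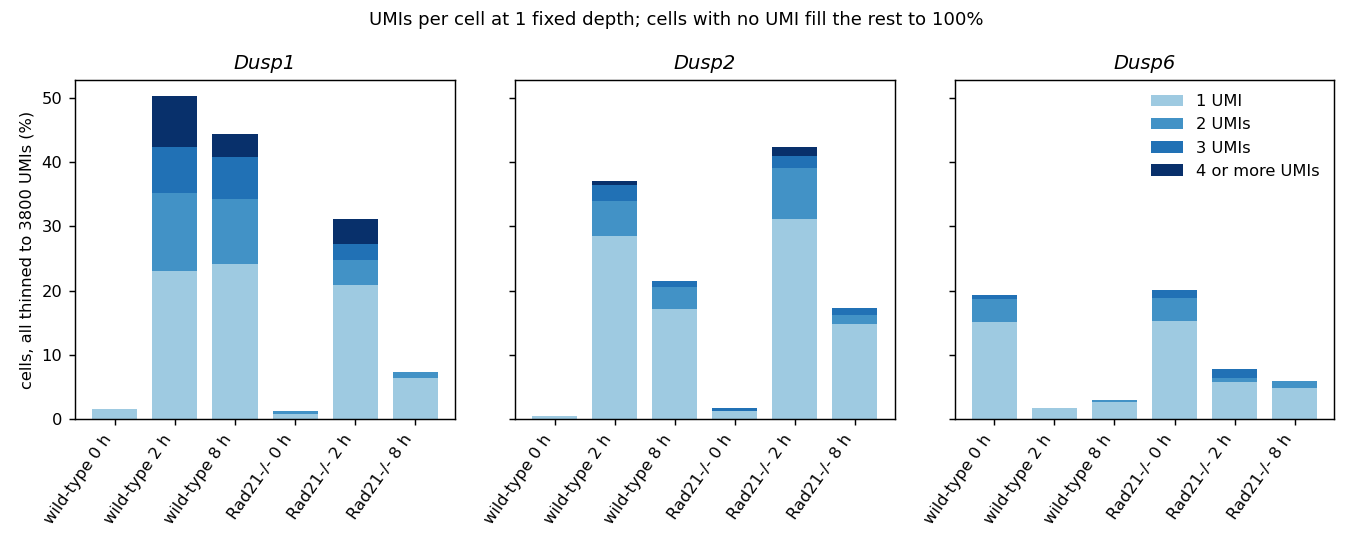
Stacked bars give the percent of cells with 1, 2, 3 or at least 4 UMIs (y axis) of Dusp1, Dusp2 and Dusp6 after every cell was thinned to 3800 UMIs, for each genotype at 0, 2 and 8 h (x axis). The Dusp1 bar of wild-type cells reached 50.3% at 2 h and 44.3% at 8 h, against 31.2% and 7.39% in Rad21-/- cells.

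In single cells thinned to this depth, the number of cells with both of 2 genes was set beside the product of their shares. At 2 h, 36 wild-type cells had both Dusp1 and Dusp2, where the product gives 30.7. At 8 h, 28 wild-type cells had both, where the product gives 21.7. In Rad21-/- cells at 2 h, 23 cells had both against 20.3. Dusp2 and Dusp16 went the other way in wild-type cells at 8 h, with 4 cells against 7.31. Dusp1 and Dusp3 were found together in 27 wild-type cells at 2 h against 27.7. Counts above the product were not limited to pairs of raised genes. Dusp2 and Spred1 were together in 34 wild-type cells at 2 h against 28.1, and Dusp3 and Spred1 in 26 Rad21-/- cells at 8 h against 20.0. Dusp1 and Spred1 were under it in wild-type cells at 8 h, with 42 against 44.3. Cells without a UMI of any of the 8 genes made up 25%, 11.5% and 15.8% of wild-type cells and 36.3%, 9.74% and 30.0% of Rad21-/- cells at 0, 2 and 8 h. Wild-type cells with 3 members were 2.60%, 20.0% and 11.4% at these times, and Rad21-/- cells with 3 members were 4.93%, 20.1% and 6.40%. These counts carry no test, and cells of 1 sample share their library.

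The rest of the pathway was described with 5 gene lists. Among 5 other MAP kinase phosphatases, 4 were in the matrix and 2 passed the minimum. Dusp4, a nuclear relative of Dusp1, was at 16.5, 62.2 and 3.52 CPM in wild-type cells at 0, 2 and 8 h and at 5.88, 27.6 and 1.92 CPM in Rad21-/- cells. It was 3.76-fold (2.13 to 6.68) higher at 2 h and 4.70-fold (1.40 to 18.5) lower at 8 h in wild-type cells, and was thus under its untreated level when Dusp1 and Dusp2 were still high. Dusp7, a cytoplasmic ERK phosphatase related to Dusp6, was at 103, 58.8 and 44.1 CPM in wild-type cells and 68.6, 36.5 and 15.2 CPM in Rad21-/- cells. It was 2.33-fold (1.69 to 3.22) lower at 8 h in wild-type cells and 2.91-fold (1.67 to 4.80) lower in Rad21-/- than in wild-type cells at that time.

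Of 9 further dual-specificity phosphatases, 5 passed the minimum, with 0 past 2-fold at 2 h in wild-type cells and 1 lower at 8 h, when 17.8% of all genes were lower. That gene, Dusp23, was 2.35-fold (1.17 to 4.65) lower. Dusp22 was 2.38-fold (1.37 to 4.10) higher in untreated Rad21-/- cells and 3.29-fold (1.65 to 6.52) higher at 8 h. Styx, a pseudophosphatase, was 3.25-fold (1.02 to 11.3) lower in Rad21-/- cells at 2 h. Of 11 other Sprouty, Spred and Ras feedback genes, 6 passed the minimum. In wild-type cells 1 was higher at 2 h (4.42% of all genes) and 2 were lower at 8 h (17.8% of all genes). Errfi1, a feedback inhibitor of the EGF receptor, was 5.48-fold (2.40 to 13.0) higher at 2 h in wild-type cells and 8.22-fold (3.10 to 20.8) higher in Rad21-/- cells. Ptpn7, a tyrosine phosphatase that acts on ERK and p38, was 3.61-fold (2.22 to 5.79) lower at 8 h in wild-type cells, and Rasa1, a Ras GTPase-activating protein, was 2.48-fold (1.32 to 4.57) lower. Rasa2 was 2.08-fold (1.18 to 3.57) higher in Rad21-/- cells at 2 h.

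Of 28 kinases of the cascades, 25 passed the minimum. At 2 h in wild-type cells 1 was higher and 1 was lower, near the 4.42% and 4.50% of all genes, with a median log2 ratio of -0.21 against -0.085 over all genes tested. At 8 h, 3 were higher and 5 were lower, where 6.35% and 17.8% of all genes were, with a median of -0.32 against -0.27. Map3k8, which links Toll-like receptors to the ERK cascade, was 3.14-fold (1.22 to 8.01) higher at 2 h and 8.94-fold (3.83 to 20.4) higher at 8 h. In Rad21-/- cells it was 2.03-fold (1.32 to 3.09) lower than in wild-type cells at 8 h. Mapkapk2, a kinase downstream of p38, was 2.58-fold (2.22 to 3.0) higher at 8 h, and 2.17-fold (1.98 to 2.37) higher in Rad21-/- than in wild-type cells at that time. Mapk3, which encodes an ERK, was 3.07-fold (2.10 to 4.50) lower at 8 h, and Rps6ka1, a kinase activated by ERK, 3.25-fold (2.04 to 5.13) lower. Map2k7, which activates JNK, was 3.0-fold (1.17 to 7.41) lower at 8 h, and Mapk9, which encodes a JNK, was 2.71-fold (1.38 to 5.09) lower at 2 h.

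Immediate-early genes that respond to ERK were mostly higher with the raised phosphatases at 2 h. Of 16 such genes, 13 were in the matrix and passed the minimum. In wild-type cells at 2 h, 11 were higher and 0 lower, beside 4.42% and 4.50% of all genes, with a median log2 ratio of 1.68 against -0.085 over all genes tested. At 8 h, 5 were higher and 1 lower, beside 6.35% and 17.8% of all genes, with a median of 0.24 against -0.27. Between genotypes, 2 were higher and 3 lower in untreated Rad21-/- cells (2.16% and 5.20% of all genes), and 0 were higher and 3 lower at 2 h (3.64% and 6.25%). At 8 h, 0 were higher and 6 lower (9.44% and 4.33%), and the median was -0.72 against 0.21 over all genes tested. Egr1 was 21-fold (5.74 to 88.4) higher at 2 h in wild-type cells, with 1.61 CPM at 8 h and 2.96 CPM untreated, a ratio of 0.542 (0.0981 to 4.28). Phlda1 was 29.7-fold (8.30 to 99.2) higher at 2 h, and Ier3 was 12.6-fold (7.26 to 22.1) higher at 2 h and 20.3-fold (11.8 to 35.3) at 8 h. Fos was 38.6-fold (5.01 to 257) lower at 8 h than in untreated wild-type cells. Zfp36 was 4.58-fold (3.68 to 5.65) lower and Junb 2.52-fold (2.08 to 3.04) lower in Rad21-/- than in wild-type cells at 8 h.

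For each member with the minimum UMIs, the 3 genes with the most similar profile were taken by Pearson's r of log2(mean CPM + 1) over the 6 samples, as a description over 6 points with no p. Nearest to Dusp1 were Zfp36, which encodes the mRNA decay factor tristetraprolin (r = 0.994), Cpeb4, an RNA-binding translation factor (r = 0.993), and the pseudokinase gene Trib1 (r = 0.992). Zfp36 was at 38.8, 502 and 352 CPM in wild-type cells and 21.8, 313 and 76.9 CPM in Rad21-/- cells at 0, 2 and 8 h. Its likeness to Dusp1 follows from its choice by profile over these same samples. Dusp2 and Dusp5, like Dusp1 and Zfp36, had their lowest value after LPS in Rad21-/- cells at 8 h. Nearest to Dusp2 were Sdc4, a membrane proteoglycan (r = 0.996), the heat shock gene Hspa1b (r = 0.994) and Adarb2 (r = 0.992). Sdc4 was at 94.2, 546 and 489.8 CPM in wild-type and 104, 672 and 369.8 CPM in Rad21-/- cells.

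Nearest to Dusp5 were Itga1, Csrnp1 and Junb, the last an AP-1 subunit (r = 0.991, 0.990 and 0.989). Junb was at 63.1, 797 and 292 CPM in wild-type and 49.8, 540.0 and 116.1 CPM in Rad21-/- cells. Nearest to Dusp16 were the Hippo pathway gene Sav1, the cytokine gene Tnfsf15 and the chemokine gene Cxcl3 (r = 0.998, 0.994 and 0.987). Nearest to Dusp6 were Fam78a, Borcs8 and Zfp277 (r = 0.995, 0.990 and 0.988), of which Fam78a was at 22.8, 9.06 and 11 CPM in wild-type and 23.9, 16.1 and 13.5 CPM in Rad21-/- cells. Nearest to Dusp3 were the kinase gene Map4k4, Lama3 and Aldh3a2 (r = 0.996, 0.996 and 0.995), and nearest to Spred1 were the Mediator gene Med13, Stx11 and Cggbp1 (r = 0.992, 0.985 and 0.984). Among the members themselves, r was 0.96 for Dusp1 and Dusp5, 0.88 for Dusp1 and Dusp2, and -0.94 for Dusp16 and Dusp6.

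All 8 genes lie on separate loci of GRCm38.p6 in RefSeq. Dusp1 spans chr17:26505591-26508472, Dusp2 chr2:127336159-127338377, Dusp5 chr19:53529145-53541809 and Dusp16 chr6:134715468-134807063. Dusp6 spans chr10:99263231-99267489, Dusp3 chr11:101971141-101987013, Spred1 chr2:117121071-117182279 and Spry2 chr14:105891947-105896819. Other annotated genes overlap Dusp16 (2 genes) and Dusp6 (1 gene). They were not in the matrix and were not analysed here. Whether any of their reads were counted for the members was not tested.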

How the data were processed

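Single-cell RNA was measured by MARS-seq in 6 samples, 1 per genotype and time point. Per the study's methods, the authors mapped reads with GEMTools 1.7.0 to GRCm38 with Gencode M8, dropped wells with over 15% spike-in reads or under 60% mapped reads, collapsed UMIs at an edit distance of up to 2, and deposited the counts per gene and cell without normalization. All 1362 cells and 24 library pools were assigned by name. Here, mean CPM per sample (each cell of equal weight), shares of cells and UMI sums were computed in Python (3.11.15) using scipy (1.17.1), pandas (2.3.3) and numpy (2.4.6). Means carry Fay-Feuer gamma intervals, ratios and differences intervals combined from them, shares Clopper-Pearson intervals and UMI sums Poisson intervals, all at 95%. A 2-fold call used 1 added UMI per sample and at least 100 UMIs over the 6 samples. Thinning drew 3800 UMIs per cell. Where a sample had 0 UMIs, 3 counts set the limit. PCR duplicates were removed by UMI, and intervals cover counting error only. With 1 sample per group no test was made. The scripts were tested on drawn counts with known answers.

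The members and gene lists were chosen with earlier results of these data known. Named genes are the members, Rad21, the genes of each list past 2-fold in a wild-type LPS or genotype comparison (at most 6 per list, largest first), and the 3 nearest profiles of each member. Cd14 and the B cell markers were added as cell type markers that moved with genotype. Promoters came from RefSeq GRCm38.p6. Other settings tried were CPM of summed UMIs, equal weight for each pool, leaving out deep wells or each pool, other thresholds and thinning depths, and, chosen after seeing the data, leaving out cells with a UMI of a B cell marker.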

Additional observations from a re-analysis of the deposited data

Results flagged for a closer look

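The Dusp3 ratio to untreated cells had opposite directions at the 2 times of LPS in Rad21-/- cells, each beyond its counting interval. The log2 ratio was 0.31 (0.0062 to 0.61) at 2 h and -0.76 (-1.12 to -0.41) at 8 h. Both ratios share the same untreated sample, the interval at 2 h ended close to equality, and the difference between them was not tested. In wild-type cells the log2 ratio was 0.11 (-0.22 to 0.45) at 2 h and -1.07 (-1.46 to -0.68) at 8 h.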

How the results depend on the processing

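No paired analysis was possible because each group held 1 sample. The counts of members past 2-fold were recomputed under 6 planned settings and without each library pool, and between genotypes also without cells with a UMI of a B cell marker, a setting chosen after seeing the data. For the count lower at 8 h in wild-type cells (2), CPM of the summed UMIs and equal weight for each pool gave 1, since Dusp3 left it. The count higher at 8 h against 2 h (1) was 0 with summed UMIs. At 1.5-fold, the count lower at 8 h in Rad21-/- cells was 2 in place of 1. Between genotypes, the count higher in untreated Rad21-/- cells (0) was 1 with summed UMIs, with equal pool weight and at 1.5-fold. The count higher at 2 h (1) was 2 with equal pool weight, where Dusp2 entered. Equal pool weight gave 2 h pools of 1 to 6 cells of a genotype the weight of pools of 41 to 47. The count lower at 2 h (1) was 2 with summed UMIs and with equal pool weight, 3 at 1.5-fold and 0 without cells with a B cell marker. The count higher at 8 h (0) was 1 with equal pool weight and at 1.5-fold, and the count lower at 8 h (1) was 2 with summed UMIs, with equal pool weight, at 1.5-fold and with 0.5 UMI added. The cause was not tested. The member that entered or left was Dusp5 in both lower genotype counts with summed UMIs or equal pool weight, and Dusp2 in the count higher in untreated cells under those settings.

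Leaving out each library pool in turn gave these ranges: wild-type 2 h, 4 to 4 higher and 1 to 1 lower. The other ranges were 4 to 4 and 1 to 2 for wild-type 8 h, 0 to 1 and 2 to 2 for 8 h against 2 h, 3 to 4 and 1 to 1 for Rad21-/- 2 h, and 4 to 4 and 1 to 1 for Rad21-/- 8 h. Between genotypes they were 0 to 1 and 0 to 1 untreated, 1 to 1 and 1 to 2 at 2 h, and 0 to 1 and 1 to 2 at 8 h.

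Of the share differences with an interval that excluded 0, 2 changed direction. The Dusp1 share at 8 h against 2 h in wild-type cells was -10.2 points in all cells and 4.04 points in cells thinned to 5500 UMIs. The Dusp3 share in Rad21-/- against wild-type cells at 2 h was 11.3 points and -1.83 points with equal pool weight. The latter value gives full weight to 2 h pools of 1 to 6 cells of a genotype. Differences with an interval that included 0 also changed sign. Examples are Dusp3 at 2 h against untreated wild-type cells (7.86 points, -5.73 at 3800 UMIs), Dusp5 between genotypes at 2 h (-4.30 points, 0.917 at 5500 UMIs) and Dusp6 between untreated genotypes (2.66 points, -2.86 without cells with a B cell marker). The Dusp5 log2 ratio of Rad21-/- cells to untreated moved from 3.92 to between 3.27 and 4.75 at 2 h and from 1.97 to between 1.12 and 2.68 at 8 h over summed UMIs, equal pool weight and 0.5 UMI added. Depth limits Dusp5 and Spry2 most.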
